A study of Mus musculus with 10 samples.

Results

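The Hox genes of the mouse were examined on 10 two-colour arrays of wild-type (WT) and Sirt6 knockout (KO) samples exposed to TNF-alpha. A gene was a member if a probe was annotated to exactly 1 symbol that read Hoxa, Hoxb, Hoxc or Hoxd and a paralogue number from 1 to 13. By that rule 34 genes were members, of 14654 genes with such a probe in the series and of 39 Hox genes in the RefSeq table. All 34 had values on all 10 arrays and were among the 14365 genes tested. The other 5 were not analysed here. The groups were WT and Sirt6-/- (KO) samples, each untreated (0 h, 2 arrays, a and b) and after 1.5, 6 or 24 h of TNF-alpha (1 array each). On each array the sample carried Cy5 and a common mouse reference RNA carried Cy3. The sources used here do not give the cell type, the age of the animals or the nature of the knockout allele. They do not state whether arrays a and b came from separate cultures, so errors and p-values cover the spread among these arrays alone, and that may be technical.

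Hox genes encode homeodomain transcription factors that give cells their position along the head-to-tail axis and along the limbs. In the mouse they lie in 4 clusters, Hoxa on chromosome 6, Hoxb on chromosome 11, Hoxc on chromosome 15 and Hoxd on chromosome 2 (GRCm38), and within a cluster the order of the genes follows the order of their expression along the body. Mesenchymal cells taken from different sites of the body are known to keep distinct Hox codes in culture. Polycomb complexes keep silent Hox genes in repressed chromatin, Trithorax complexes keep active ones on, and retinoic acid and Cdx factors set the pattern in the embryo. Sirt6 encodes a chromatin-bound deacetylase, and TNF-alpha is a cytokine of inflammation that signals through NF-kB. The genes were grouped by cluster (9 Hoxa, 10 Hoxb, 8 Hoxc and 7 Hoxd) and by position: 6 anterior (paralogues 1 to 3), 13 central (4 to 8) and 15 posterior (9 to 13).

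Values are log2 ratios of the sample to the reference RNA, set so that the median gene of each array is at 0. Such a ratio depends on the reference, so the genes were not ranked by the amount of their RNA, and spot intensities were not used here, so signal over background is not known. The label was checked on Sirt6, which lay between -0.16 and 0.07 on the WT arrays and at -1.05, -0.82, -0.76 and -1.16 on the KO arrays of 0, 1.5 and 6 h. On the array labelled KO at 24 h it was -0.05, inside the range of the WT arrays, so any difference that uses this array carries a doubt about the label. The TNF targets Ccl2 and Nfkbia were higher on every treated array than on any 0 h array. Fibroblast and mesenchyme markers had a median between 0.56 and 0.93 on every array (12 of 13 measured), and macrophage markers a median between -2.59 and -0.90 (7 of 9). The fibroblast markers were mixed. Means over the arrays were below 0 for Pdgfra (-2.62), Dcn (-2.66), Col3a1 (-0.53) and Lum (-0.19), and above 0 for the others. Markers of skeletal and cardiac muscle (8 of 8) had a median of -0.17 to -0.01 on the WT arrays and of 0.32 to 0.94 on the KO arrays. Not every muscle marker followed its list. Myod1 was at 0.205 and 0.33 on the WT 0 h arrays and 0.121 and 0.223 on the KO 0 h arrays. Acta1 overlapped between the genotypes (2.879 to 3.525 in WT, 3.002 to 4.252 in KO), as did Myog and Tnnt2. In such bulk samples less RNA per cell and fewer cells of a type cannot be told apart. Over all genes the spread of the KO 0 h arrays (SD 0.749 and 0.895) was wider than that of the WT 0 h arrays (0.539 and 0.585), and the KO 0 h pair correlated at 0.690 over genes against 0.857 for the WT pair.

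The results turn most on Hoxa5 and Hoxa7, which were higher on both KO 0 h arrays, and on Hoxd1, which stood far out on 1 array. The 250 bases before the annotated start of each are shown from RefSeq (GRCm38.p6), 5′ to 3′ on the strand of the gene, to let the CpG content and the motifs of Hox inputs be read in them. Hoxa5 lies on the minus strand at chr6:52204588-52204837, Hoxa7 on the minus strand at chr6:52218574-52218823 and Hoxd1 on the plus strand at chr2:74762730-74762979. Capitals mark CpG dinucleotides.
Hoxa5 promoter: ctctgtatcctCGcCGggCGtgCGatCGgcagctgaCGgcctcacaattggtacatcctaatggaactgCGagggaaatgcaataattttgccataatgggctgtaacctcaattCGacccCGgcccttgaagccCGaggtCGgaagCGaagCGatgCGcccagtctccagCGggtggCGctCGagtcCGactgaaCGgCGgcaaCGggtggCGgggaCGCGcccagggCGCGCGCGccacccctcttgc
Hoxa7 promoter: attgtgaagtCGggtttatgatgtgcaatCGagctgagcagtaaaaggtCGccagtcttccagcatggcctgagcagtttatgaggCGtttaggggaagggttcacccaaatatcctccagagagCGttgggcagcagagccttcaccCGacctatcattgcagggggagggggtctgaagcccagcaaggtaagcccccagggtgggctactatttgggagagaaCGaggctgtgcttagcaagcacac
Hoxd1 promoter: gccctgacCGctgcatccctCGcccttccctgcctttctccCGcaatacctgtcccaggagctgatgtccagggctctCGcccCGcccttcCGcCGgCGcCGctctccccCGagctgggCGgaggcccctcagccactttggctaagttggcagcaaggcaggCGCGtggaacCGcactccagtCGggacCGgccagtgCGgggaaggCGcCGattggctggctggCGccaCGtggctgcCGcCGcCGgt
The Hoxa5 stretch held 28 CpG dinucleotides and was 63.6% G or C, and the Hoxd1 stretch held 24 at 71.6%. Hoxa7 held 7 at 54.8%, close to the median of 6 over all 32851 promoters in the table. The median over the 21 Hox promoters there, which belong to 19 of the 34 genes, was 13. The Cdx motif TTTATG (or CATAAA) occurred at 2 places in the Hoxa7 stretch, in 4 of the 21 Hox promoters (Hoxa7, Hoxb8, Hoxd3 and Hoxd11) and in 10.8% of all promoters. The retinoic acid receptor half-site AGGTCA (or TGACCT) was in 4 of the 21 (Hoxb4, Hoxc4, Hoxd3 and Hoxd10) and in 14% of all, and the TATA motif TATAAA (or TTTATA) in 3 of the 21 (Hoxa10, Hoxb8 and Hoxd13) and in 12.4% of all. Neither was among the letters of the 3 stretches shown. The motifs were chosen after the sequences were seen and searched on both strands, and Cdx and TATA matches may overlap. A match or its absence describes only the letters of this window.

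Of the 34 members, 5 lay above the median gene on all 10 arrays, namely Hoxa5, Hoxa7, Hoxb2, Hoxb6 and Hoxd10, and Hoxc9 lay below it on all 10. All 10 arrays were above it for 14.9% of all genes and below it for 13.8%, so the count above was at the background and the count below was under it. With the trend in spot order removed, a setting chosen for this count after seeing the data, 3 were below it on all 10 (13.5% of all genes). The median Hox gene of an array lay between -0.05 and 0.19. The spread of the 0 h pairs had a median SD of 0.264 over the Hox genes and of 0.219 over all genes. Smaller differences between arrays than this are within the spread of the pairs.

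**Figure D1:**
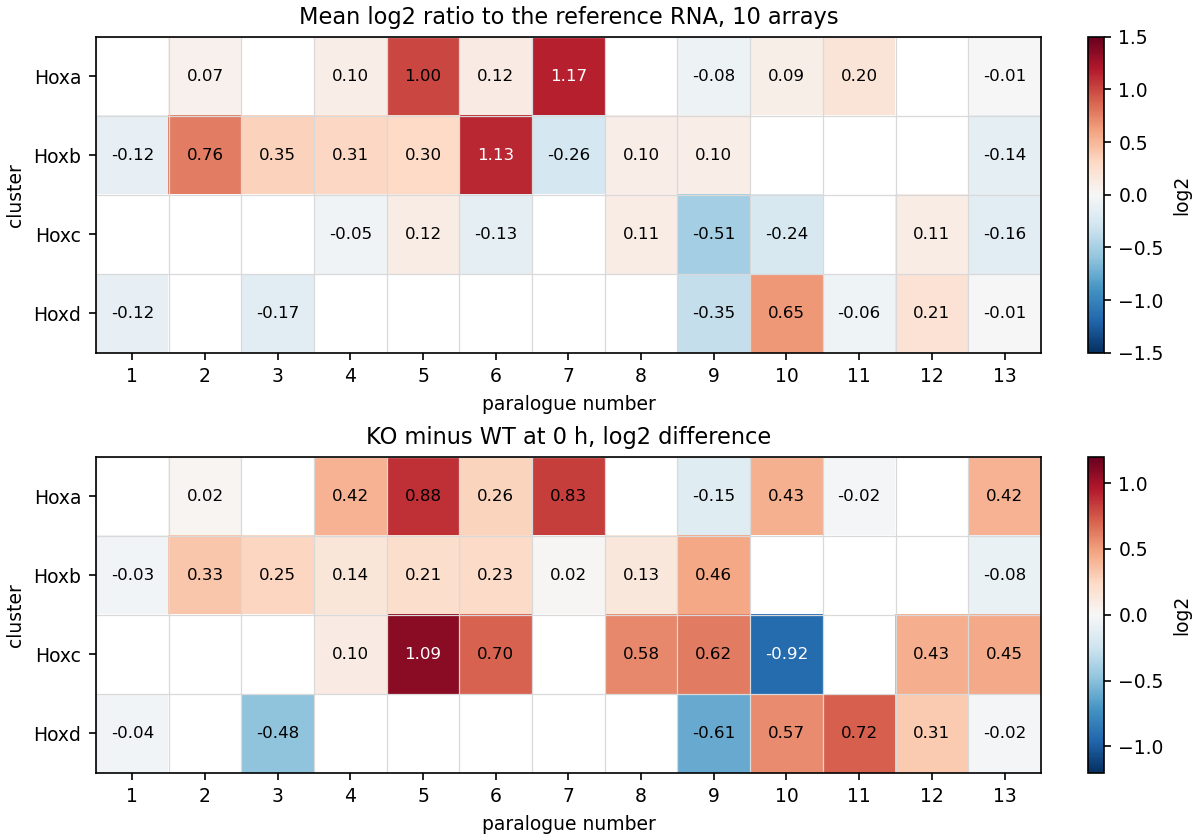
Each tile is a Hox gene, placed by cluster (rows) and paralogue number (columns), with blank tiles where there is no member. The upper grid gives the mean log2 ratio to the reference over 10 arrays and the lower grid the log2 difference KO minus WT at 0 h (2 arrays each). Hoxa5, Hoxa7 and Hoxb6 are at 1.00, 1.17 and 1.13 in the upper grid. In the lower grid all 13 tiles of paralogues 4 to 8 are above 0 with arrays centred, with Hoxb7 lowest at 0.02.

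In the Hoxa cluster, the central genes Hoxa5 and Hoxa7 stood out. Hoxa5, a regulator of lung and vertebral development, lay at 0.67 and 0.75 before treatment and 0.87, 0.94 and 1.13 after 1.5, 6 and 24 h in WT, and at 1.61 and 1.57, then 1.24, 0.26 and 0.94, in KO. The KO 0 h arrays were the highest of the 10 and the KO 6 h array the lowest, and on the WT arrays the value was higher at each later time than at 0 h. Hoxa5 rests on 1 probe. Hoxa7, a patterning gene of the thoracic skeleton, lay at 0.78 and 0.58 before treatment and 0.69, 0.96 and 1.43 after 1.5, 6 and 24 h in WT, and at 1.53 and 1.49, then 1.72, 1.06 and 1.44, in KO. Every KO array was above every WT array except that of 24 h, so the genotypes overlap. Its pair of probes both gave a higher KO value at 0 h, by 1.14 and 0.52.

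Values of the other members are given in the same order of arrays, 0 h a, 0 h b, 1.5 h, 6 h and 24 h. Hoxa2, which patterns the second branchial arch, lay at 0.08, -0.22, 0.17, 0.18 and -0.13 in WT and -0.16, 0.07, 0.73, 0.21 and -0.23 in KO, with the KO 1.5 h array above all others. Hoxa4 lay at -0.03, -0.04, 0.12, -0.01 and 0.09 in WT and 0.21, 0.55, 0.50, -0.09 and -0.28 in KO. It was highest on the KO 0 h b and KO 1.5 h arrays and lowest on the KO 24 h array. Hoxa6 lay at -0.07, -0.04, 0.16, 1.09 and -0.39 in WT and 0.16, 0.26, 0.03, 0.26 and -0.28 in KO, and the WT 6 h array stood alone above the rest.

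The posterior Hoxa genes varied around 0. Hoxa9, known for its role in blood stem cells and leukaemia, lay at 0.20, 0.01, -0.36, 0.38 and 0.19 in WT and -0.03, -0.06, -0.82, -0.09 and -0.24 in KO. It was below 0 on every KO array, its lowest WT value was at 1.5 h, and it rests on 1 of 3 probes, since the others had values on only 3 and 9 arrays. Hoxa10, which patterns the uterus and the lumbar spine, lay at -0.44, -0.09, 0.19, 0.41 and -0.11 in WT and -0.28, 0.61, -0.11, -0.09 and 0.82 in KO, with no order by genotype. Hoxa11, needed for the forearm and uterus, lay at 0.32, 0.39, 0.25, 0.27 and -0.55 in WT and 0.43, 0.23, 0.28, -0.17 and 0.53 in KO, with WT 24 h lowest and KO 24 h highest. Hoxa13, needed for the digits, lay at 0.16, -0.65, 0.09, 0.23 and 0.31 in WT and 0.77, -0.42, -0.33, 0.03 and -0.29 in KO, and its 0 h arrays a and b lay far apart in both genotypes.

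In the Hoxb cluster, Hoxb6 and Hoxb2 lay above the array median throughout. Hoxb2, which acts in hindbrain motor neurons, lay at 0.55, 0.57, 0.55, 0.64 and 1.15 in WT and 0.91, 0.88, 1.41, 0.09 and 0.90 in KO. The 0 h values of each genotype were close together, KO 1.5 h was highest and KO 6 h lowest. Hoxb6 lay at 0.80, 1.32, 0.60, 1.74 and 1.06 in WT and 0.97, 1.62, 0.74, 1.27 and 1.19 in KO, with array b above array a in both genotypes at 0 h and both genotypes low at 1.5 h. Hoxb3, a hindbrain gene, lay at 0.33, 0.20, 0.28, 0.45 and 0.49 in WT and 0.38, 0.66, 0.54, -0.01 and 0.18 in KO and was below 0 only on the KO 6 h array. Its probes disagreed in the KO minus WT difference at 0 h, 0.84 against -0.33. Hoxb4, known to expand blood stem cells, lay at 0.24, -0.03, -0.08, 0.75 and 0.43 in WT and 0.20, 0.30, 0.42, 0.47 and 0.37 in KO, highest on the WT 6 h array.

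The remaining Hoxb genes overlapped between the genotypes. Hoxb5 lay at 0.23, 0.35, 0.48, 0.32 and 0.13 in WT and 0.01, 0.99, 0.76, -0.06 and -0.21 in KO, and the KO 0 h arrays were almost 1 log2 unit apart. Hoxb1, which gives identity to a hindbrain segment, lay at -0.46, 0.21, -0.05, -0.24 and -0.13 in WT and -0.26, -0.05, -0.34, 0.00 and 0.09 in KO. Hoxb7 lay at -0.24, -0.29, -0.52, -0.49 and 0.20 in WT and -0.05, -0.45, -0.15, -0.47 and -0.13 in KO and was above 0 only on the WT 24 h array. Hoxb8, known in mice for its role in microglia and grooming, lay at 0.06, 0.03, 0.17, -0.31 and 0.72 in WT and 0.73, -0.36, -0.03, -0.24 and 0.26 in KO, with KO 0 h a and WT 24 h high and KO 0 h b low. Hoxb9, which patterns the ribs, lay at 0.15, -0.23, -0.05, 0.12 and 0.09 in WT and 0.32, 0.53, -0.01, 0.16 and -0.04 in KO, highest on the KO 0 h arrays. Hoxb13, a prostate gene, lay at -0.08, -0.11, 0.19, -0.22 and -0.52 in WT and -0.26, -0.08, -0.43, 0.10 and -0.05 in KO, lowest on the WT 24 h array.

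In the Hoxc cluster, Hoxc8 and Hoxc13 were higher on most KO arrays than on the WT arrays. Hoxc8, which patterns the brachial and thoracic region, lay at -0.21 and -0.09 before treatment and -0.45, -0.21 and 0.25 after 1.5, 6 and 24 h in WT, and at 0.53 and 0.33, then 0.60, -0.13 and 0.51, in KO. All KO arrays except that of 6 h were above every WT array. Its probes both gave a higher KO value at 0 h, but by 0.98 and by 0.17. Hoxc13, a gene of hair and nail, lay at -0.36 and -0.57 before treatment and -0.15, -0.44 and -0.24 after 1.5, 6 and 24 h in WT, and at 0.11 and -0.15, then 0.10, 0.16 and -0.05, in KO. The KO arrays were all above the WT arrays, although KO 0 h b and WT 1.5 h were nearly equal. Hoxc13 was the only member so separated, 1 of 34 against 0.961% of all genes, and 0 of 34 had all KO arrays below all WT arrays, against 1.28%.

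Hoxc6, a gene of the thoracic region, lay at -0.33 and -1.19 before treatment and -0.35, -0.22 and -0.20 after 1.5, 6 and 24 h in WT, and at -0.23 and 0.12, then 0.21, 0.63 and 0.23, in KO. The WT 0 h b array was far below the others through 1 probe, at -2.28 there, and the KO arrays after treatment were all above 0. Hoxc9, which sets thoracic motor neuron identity, lay at -0.70, -0.83, -0.47, -0.83 and -0.42 in WT and -0.29, -0.01, -0.12, -0.89 and -0.48 in KO. It was highest on the KO 0 h b and KO 1.5 h arrays and lowest on the KO 6 h array. Hoxc5 lay at -0.59, -0.70, 0.22, 0.21 and 0.47 in WT and -0.15, 1.03, 0.49, 0.22 and -0.06 in KO, with the WT 0 h arrays lowest and KO 0 h b highest. Hoxc4 lay at -0.32, -0.23, -0.22, -0.33 and 0.06 in WT and -0.11, -0.24, 0.35, 0.11 and 0.44 in KO, low on all WT arrays before 24 h and on KO 0 h b.

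The other posterior Hoxc genes differed mainly within the KO 0 h pair. Hoxc10, which sets lumbar motor neuron identity, lay at -0.12, 0.32, -0.28, -0.62 and -0.17 in WT and -0.18, -1.46, -0.20, 0.08 and 0.18 in KO, and the KO 0 h b array was more than 1 log2 unit below its partner. Hoxc12 lay at -0.07, 0.37, 0.19, -0.53 and -0.08 in WT and -0.11, 1.28, -0.03, 0.28 and -0.23 in KO, and the KO 0 h b array was above all others. For these genes the 0 h pair limits what a genotype difference can show.

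In the Hoxd cluster, Hoxd10 was above and Hoxd9 mostly below the array median, and Hoxd1 had the widest range of all members. Hoxd1, which in the mouse shapes pain-sensing neurons, lay at 0.08 and -0.14 before treatment and -0.33, -0.78 and 2.70 after 1.5, 6 and 24 h in WT, and at 0.28 and -0.41, then -0.25, -1.16 and -1.20, in KO. The WT 24 h array stood alone, at 2.70, while the KO arrays of 6 h and 24 h were the lowest of the 10. Of the 7 macrophage markers measured, Itgam and Ptprc also stood apart on the WT 24 h array. Itgam was at 3.15 there and between -0.71 and 0.54 on the other arrays, and Ptprc at 0.705 and between -3.31 and -1.70. The other 5, Adgre1, Lyz2, Tyrobp, Cd14 and Ctss, were not highest on that array. Of the 4 epithelium markers measured, Krt18 also stood apart there, at -1.42 against -3.78 to -2.59 on the other arrays. Cdh1 was highest there too (0.30), and Epcam and Krt8 were lowest there. The part of the marker values in that of Hoxd1 was not tested. Hoxd10, a gene of lumbar motor neurons, lay at 0.58, 0.44, 0.23, 0.72 and 1.08 in WT and 1.44, 0.73, 0.38, 0.43 and 0.51 in KO, highest on the KO 0 h a and WT 24 h arrays. Hoxd9 lay at -0.23, 0.09, -0.33, -0.69 and 0.23 in WT and -0.16, -1.20, -0.55, -0.54 and -0.14 in KO, lowest on KO 0 h b. Hoxd3, which patterns the atlas vertebra, lay at 0.03, 0.05, -0.04, -0.10 and -0.28 in WT and -1.04, 0.16, 0.07, -0.25 and -0.27 in KO, lowest on KO 0 h a, with the other arrays close together.

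The last posterior Hoxd genes, which act in the limb, showed no order by genotype. Hoxd11 lay at -0.91, 0.11, 0.20, -0.03 and 0.03 in WT and 0.68, -0.04, 0.21, -0.14 and -0.71 in KO, with the lowest value on WT 0 h a. Hoxd12 lay at 0.06, -0.37, 0.28, 0.68 and 0.37 in WT and 0.39, -0.07, 0.61, -0.03 and 0.22 in KO. Hoxd13, needed for the digits, lay at -0.13, 0.30, -0.05, -0.16 and 0.19 in WT and -0.17, 0.32, 0.03, -0.04 and -0.37 in KO, with array b above array a in both genotypes at 0 h.

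**Figure D2:**
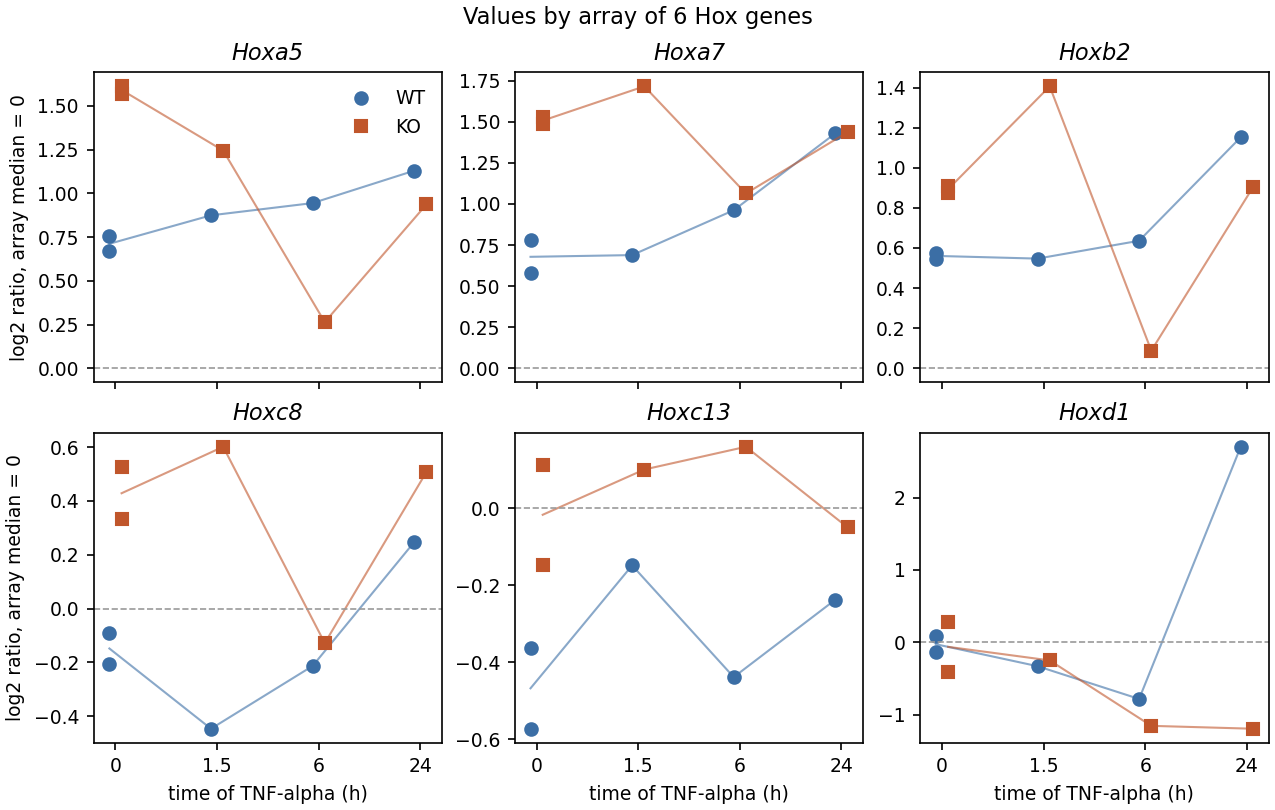
Log2 ratio to the reference on each array (y axis, a scale of its own in each panel) against the time of TNF-alpha in h (x axis, evenly spaced times) for 6 Hox genes. Blue circles are WT arrays and orange squares KO arrays, lines run from the 0 h mean through the treated arrays, and the dashed line is the median gene. The KO 0 h arrays of Hoxa5 are at 1.61 and 1.57 above WT at 0.67 and 0.75, and the WT 24 h array of Hoxd1 is at 2.70.

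The comparison at 0 h asked whether loss of Sirt6 alone went with a different Hox pattern. The median Hox gene was 0.26 higher in KO than in WT on the log2 scale, against -0.04 for the median of all genes. Of the 34 genes, 25 had a positive difference (46.2% of all genes did), and of the 13 central genes all 13 did. Both counts hold with arrays centred. The smallest central differences were those of Hoxb7 (0.02) and Hoxc4 (0.10), and the Hoxc4 probes went opposite ways (0.40 and -0.21). Without centring every difference falls by the same amount, the Hox median from 0.26 to 0.10. That puts Hoxb7, Hoxc4, Hoxb8 and Hoxb4 below 0. By limma 0 Hox genes passed an adjusted p under 0.05, as did 0% of all genes. At an unadjusted p under 0.05, 5 Hox genes were higher (7.66% of all genes) and 0 lower (9.5%). The smallest adjusted p-values were those of Hoxa5 (0.88 higher in KO, SE 0.19, n = 2 per genotype, adjusted p = 0.193), Hoxa7 (0.83, SE 0.20, adjusted p = 0.194) and Hoxc9 (0.62, SE 0.21, adjusted p = 0.253). Hoxc8 and Hoxc5 were the others at an unadjusted p under 0.05.

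By position, the median difference at 0 h was 0.26 for the central genes, 0.42 for the posterior genes (9 of 15 positive) and -0.004 for the anterior genes (3 of 6). By cluster it was 0.51 for Hoxc (7 of 8 positive), 0.42 for Hoxa (7 of 9), 0.18 for Hoxb (8 of 10) and -0.02 for Hoxd (3 of 7). These medians are descriptions of small lists and the differences between lists were not tested. Both KO 0 h arrays were above both WT 0 h arrays for 13 of the 34 genes, against 24% of all genes: Hoxa4, Hoxa5, Hoxa6, Hoxa7, Hoxb2, Hoxb3, Hoxb9, Hoxc5, Hoxc6, Hoxc8, Hoxc9, Hoxc13 and Hoxd10. Of them 7 were central, 4 posterior and 2 anterior. The reverse order was seen in 2 genes, Hoxa9 and Hoxc10, against 28.8% of all genes. Without centring of the arrays the counts were 8 (14% of all genes) and 6 (40.3%), and the Hox median was 0.10 against -0.20 for all genes. With the trend in spot order removed the counts were 14 (22.9%) and 5 (28.2%). Both settings were chosen for these counts after seeing the data.

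The call at 0 h depended on the KO pair. With KO 0 h b as the only untreated KO array, 9 Hox genes passed, but so did 22.7% of all genes, and with KO 0 h a alone only Hoxd3 did, in the lower direction, beside 3.29% of all genes. In such a fit the lone array is assumed to vary like the WT pair. The difference of Hoxa5 was 0.84 to 0.92 and that of Hoxa7 0.73 to 0.93 whichever array was left out. The muscle marker list differed by 0.85 at 0 h, and its part in the Hox differences was not tested.

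**Figure D3:**
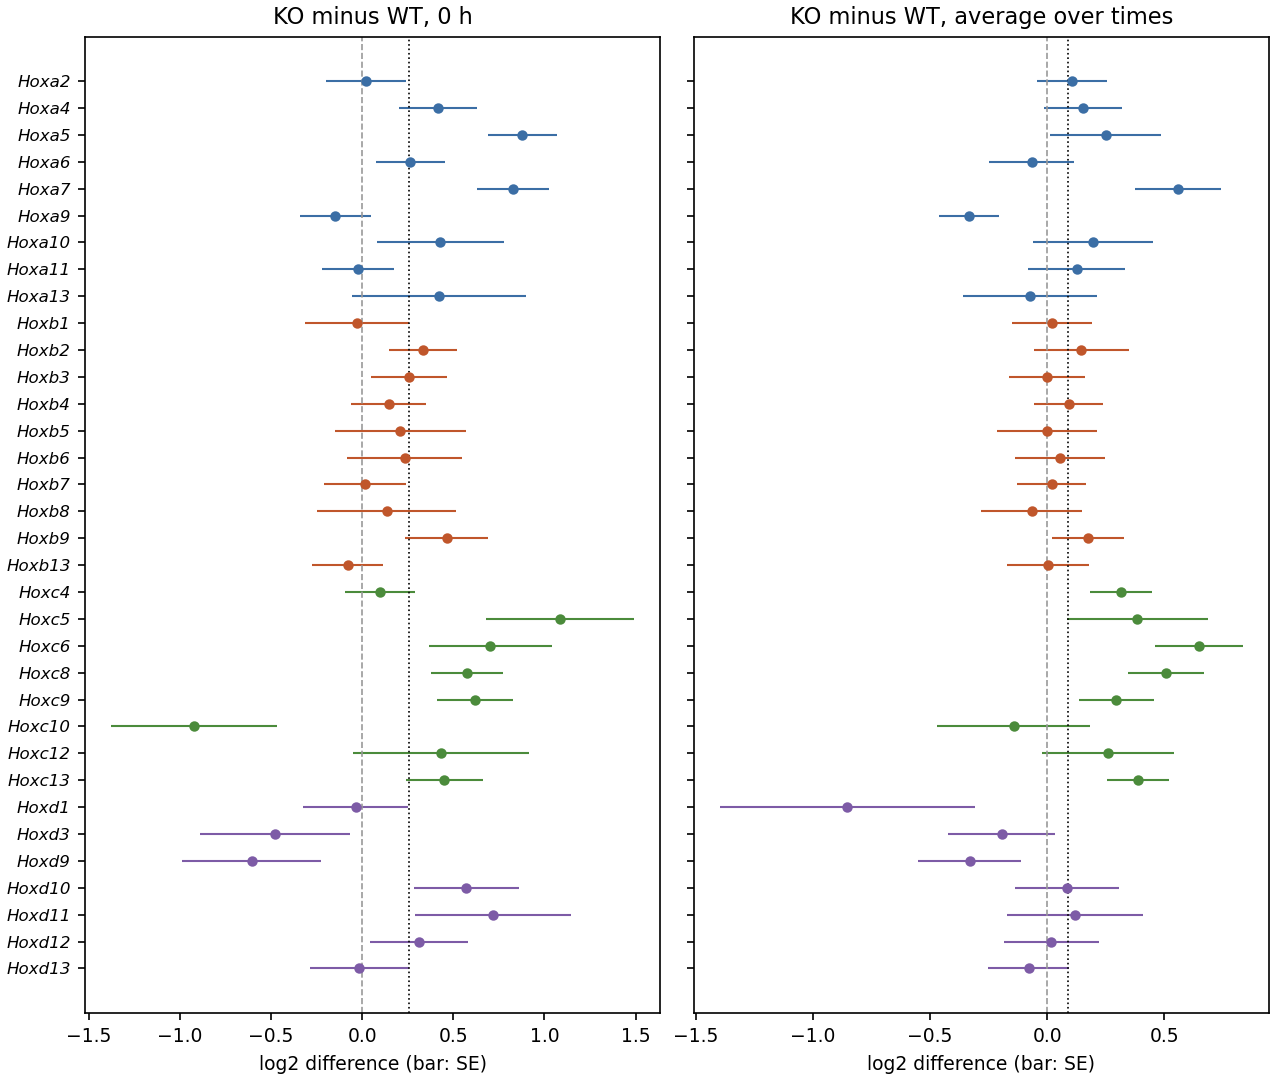
Log2 difference KO minus WT for the 34 Hox genes at 0 h (left) and as the average over times (right), with bars of 1 SE from limma. Genes run from Hoxa2 at the top to Hoxd13 at the bottom and colours mark the clusters (blue Hoxa, orange Hoxb, green Hoxc, purple Hoxd). The dashed line is 0 and the dotted line the median Hox gene, at 0.26 on the left and 0.09 on the right.

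Averaged over the times, the genotype difference was smaller. The median Hox gene was 0.09 higher in KO, against -0.03 for all genes, and 24 of 34 differences were positive against 45.6% of all genes. By limma 0 Hox genes and 0% of all genes passed. At an unadjusted p under 0.05 were 5 higher Hox genes (4.23% of all genes), namely Hoxc6, Hoxc8, Hoxa7, Hoxc13 and Hoxc4, and 1 lower gene (5.45%), Hoxa9. Hoxc6 was 0.65 higher (SE 0.19, n = 5 per genotype, adjusted p = 0.428), Hoxc8 0.51 (SE 0.16, adjusted p = 0.453) and Hoxa7 0.56 (SE 0.18, adjusted p = 0.454). The probes of Hoxc6 differed, at 1.00 and 0.29. The Hoxc cluster had the highest median, 0.35 with 7 of 8 positive, and Hoxb, at 0.02, and Hoxd, at -0.08, were near 0.

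Within the times, with 1 array per genotype after 0 h, the Hoxc median remained above 0, at 0.31 at 1.5 h, 0.52 at 6 h and 0.22 at 24 h, with 7, 7 and 5 of 8 genes positive. Of all genes 49.4%, 45.4% and 51.4% were positive. Over all 34 genes the median difference was 0.14, -0.07 and -0.14 at the same times, and the latest rests on the KO array with the WT-like Sirt6 value. By limma 0 Hox genes passed at any of these times, where 0%, 0.00696% and 0.125% of all genes did, and the smallest adjusted p was that of Hoxd1 at 24 h (-3.90, SE 0.41, adjusted p = 0.0608). At 1.5 h Hoxc8 was 1.05 higher in KO (SE 0.28, adjusted p = 1.00), Hoxa7 1.03 and Hoxb2 0.86. Here the SE assumes that a treated array varied like the 0 h pairs.

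The response to TNF-alpha was tested against 0 h with the genotypes combined. The median response of the Hox genes was 0.02 at 1.5 h, -0.05 at 6 h and 0.03 at 24 h, against 0.01, 0.02 and 0.04 for all genes. By limma 0 Hox genes passed at any time, while 0.00696%, 0.0139% and 0.0139% of all genes did. At an unadjusted p under 0.05 there were 2 Hox genes at 1.5 h (3.73% of all genes), 2 at 6 h (2.88%) and 1 at 24 h (7.08%). At 1.5 h Hoxa9 was at -0.62 (SE 0.17, adjusted p = 0.997), Hoxa2 at 0.51 (SE 0.21) and Hoxb6 at -0.51 (SE 0.26), all at the same adjusted p. At 6 h the smallest p-values were those of Hoxa6 (0.60, SE 0.25, adjusted p = 0.999), Hoxc6 (0.61, SE 0.26) and Hoxb4 (0.43, SE 0.20), all at the same adjusted p. At 24 h they were those of Hoxc4 (0.47, SE 0.18, adjusted p = 0.671), Hoxa6 (-0.42, SE 0.25, adjusted p = 0.763) and Hoxc6 (0.42, SE 0.26, adjusted p = 0.770). On the KO 24 h array, that with the WT-like Sirt6 value, the probes of Hoxc4 disagreed, at -0.31 and 1.19. Without the WT 6 h array the response of Hoxa6 at 6 h was 0.12 and that of Hoxb4 0.20. Without the KO 1.5 h array that of Hoxa2 at 1.5 h was 0.22. Without the WT 0 h b array that of Hoxc6 was 0.438 at 6 h and 0.245 at 24 h. Without the KO 24 h array the response of Hoxd1 at 24 h was 2.70, which then rests on 1 probe of the WT 24 h array alone.

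The last question was whether KO samples responded unlike WT samples, the difference at the centre of the design. At 1.5 h the median Hox difference in response, KO minus WT, was -0.07 against 0.04 for all genes, and by limma 0 Hox genes and 0% of all genes passed, with 0 Hox genes at an unadjusted p under 0.05 (3.72% of all genes). Hoxb2 was at 0.53 (SE 0.32, adjusted p = 0.999), Hoxb13 at -0.54 (SE 0.34) and Hoxa5 at -0.51 (SE 0.33), all at the same adjusted p. At 6 h the median was -0.42 against -0.03 for all genes, with 22 of 34 negative and 12 positive (48.1% of all genes). With the trend in spot order removed it was -0.123 against -0.026 for all genes, without centring -0.156 against 0.231, with arrays scaled to equal spread -0.269 against 0.009, and without WT 0 h b -0.258 against -0.020. The main value combined a WT response with a median of 0.05 and a KO response with a median of -0.22. By limma 0 Hox genes passed, while 0.00696% of all genes did, and 3 Hox genes were lower at an unadjusted p under 0.05 (6.29% of all genes) and 0 higher (7.57%). Hoxa5 was at -1.56 (SE 0.33, adjusted p = 0.221), Hoxa6 at -1.10 (SE 0.33, adjusted p = 0.288) and Hoxb2 at -0.88 (SE 0.32, adjusted p = 0.333). Of the Hoxa genes 8 of 9 and of the Hoxb genes 7 of 10 were negative, and of the Hoxc genes 3 of 8.

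At 24 h the median was -0.40 against 0.06 for all genes, with 26 of 34 negative and 8 positive (53.3% of all genes). It combined a WT response with a median of 0.27 and a KO response with a median of -0.09. By limma 0 Hox genes and 0.0278% of all genes passed, and 2 Hox genes were lower (5.68% of all genes) and 1 higher (7.46%) at an unadjusted p under 0.05. Hoxd1 was at -3.86 (SE 0.50, adjusted p = 0.140), with a WT response of 2.73 and a KO response of -1.13. Hoxa5 was at -1.07 (SE 0.33, adjusted p = 0.303) and Hoxa11 at 1.10 (SE 0.34, adjusted p = 0.307). Hoxd1 passed with the arrays scaled to an equal spread (-3.66, adjusted p = 0.0416, where 0.334% of all genes passed). It rests on 1 probe and on 1 array per genotype at 24 h, and the KO array is that with the WT-like Sirt6 value.

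On the WT 24 h array 19 of the 34 genes lay above both WT 0 h arrays (40.4% of all genes) and 7 below (39%). On the KO 24 h array 9 were above both KO 0 h arrays (40.8%) and 15 below (30.7%), and on the KO 6 h array 8 were above (31.9%) and 15 below (33.9%). In Hoxa5 all treated WT arrays were above and all treated KO arrays below their 0 h arrays, as in 1.94% of all genes, and 0 Hox genes had the opposite arrangement, against 3.07%.

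Comparisons of the responses share the 0 h arrays with the comparison of the genotypes at 0 h, with the opposite sign, so that the higher KO values at 0 h and the lower KO responses are not independent. On the treated arrays themselves KO minus WT was -0.68 (SE 0.27) for Hoxa5 at 6 h, -0.84 (SE 0.27) for Hoxa6 and -0.55 (SE 0.26) for Hoxb2, of which the smallest adjusted p was 0.527. Leaving out KO 0 h b, Hoxa5 passed at 6 h (-1.58, adjusted p = 0.0380) beside 5.35% of all genes. With KO 0 h a left out 6 Hox genes passed at 6 h, beside 18% of all genes, and 4 at 24 h, beside 14%. Without KO 0 h b Hoxd1 and Hoxd10 passed at 24 h, beside 5.64%.

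**Figure D4:**
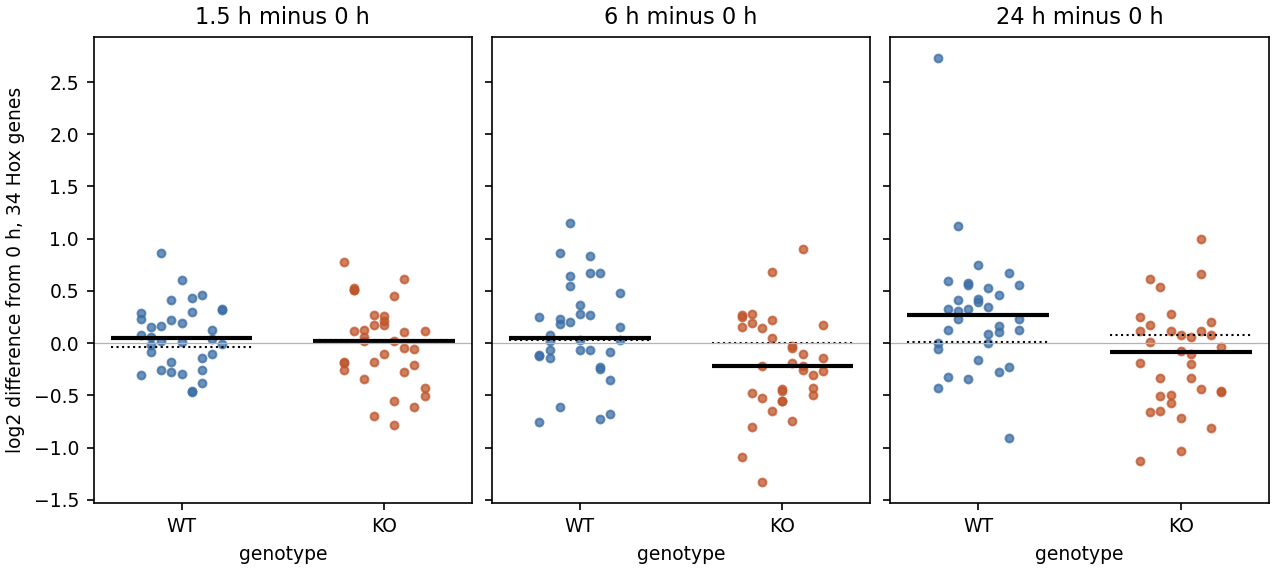
Each point is a Hox gene and gives its log2 difference from 0 h (y axis) in WT (blue) and KO (orange) at 1.5, 6 and 24 h. Sideways scatter only separates the points. Solid bars are the Hox median and dotted bars the median of all genes. At 6 h the Hox medians are 0.05 in WT and -0.22 in KO, at 24 h they are 0.27 and -0.09, and the WT point at 2.73 is Hoxd1.

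Other genes of the Hox system were read from 4 lists in the genotype comparisons. By limma 0 members passed in any list. The median of all genes was -0.04 at 0 h and -0.03 over the times. The TALE cofactors, which bind DNA together with Hox proteins, had 7 of 9 genes measured and a median difference at 0 h of -0.22. There 1 gene was lower (9.5% of all genes) and 0 higher (7.66%) at an unadjusted p under 0.05. That gene was Meis3, at -1.08 (SE 0.30, adjusted p = 0.212), with Pknox1 at -0.43 and Pbx2 at -0.37. Averaged over the times their median was -0.11, 0 were higher (4.23% of all genes) or lower (5.45%) at an unadjusted p under 0.05, and Meis1 was at 0.36 (SE 0.17). Polycomb repressors, 24 of 28 measured, had a median of -0.16 at 0 h, where 18 of 24 were negative and 6 positive (46.2% of all genes). At an unadjusted p under 0.05 were 4 lower genes (9.5% of all genes) and 0 higher (7.66%). The Polycomb subunit Cbx7 was at -0.86 (SE 0.26, adjusted p = 0.229), Rybp at -0.62 (SE 0.20) and Bmi1 at -0.61 (SE 0.21). Over the times the Polycomb median was -0.08 and 1 gene, Phc2 (-0.41, SE 0.18), was lower at an unadjusted p under 0.05, as were 5.45% of all genes. For Trithorax activators and H3K27 demethylases, 8 of 14 measured, the medians were -0.19 at 0 h and -0.15 over the times, and Dpy30, a subunit shared by the methyltransferase complexes, was at -0.46 over the times (SE 0.12, adjusted p = 0.428).

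Of the genes of retinoic acid handling and the Cdx factors, 17 of 20 were measured. At an unadjusted p under 0.05, 5 were higher (7.66% of all genes) and 3 lower (9.5%) in KO at 0 h, and 1 was higher (4.23%) and 2 lower (5.45%) over the times. Crabp1, which binds retinoic acid in the cytoplasm, was at -1.48 at 0 h (SE 0.20, adjusted p = 0.187) and at -1.34 over the times (SE 0.13, adjusted p = 0.0592), just short of the threshold. Aldh1a2, which makes retinoic acid, was at 1.07 at 0 h (SE 0.20, adjusted p = 0.187) and at 0.58 over the times (SE 0.20). Cyp26a1, which degrades it, was at -1.16 at 0 h (SE 0.26). Other members of these enzyme families went the other way at 0 h. Cyp26b1 was at 1.12 (SE 0.27), Aldh1a1 at -0.82 (SE 0.25) and Aldh1a3 at -0.21 (SE 0.21). The receptor gene Rara was at -1.03 over the times (SE 0.44). The list medians were 0.09 at 0 h and 0.01 over the times.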

How the data were processed

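Labels state that total RNA in Cy5 was hybridised with a universal mouse reference in Cy3. The log2 ratios, 1 per spot, were taken as the authors deposited them. The sources used here do not state whether or how they were normalized. Base and direction are unstated. The values were taken as log2 of Cy5 over Cy3, since they span -8.23 to 8.97 and known TNF-alpha targets are then higher after treatment. In another base sizes would differ, but not signs or tests. Deposited array medians lay between -0.255 and -0.004. Of 38784 spots, 36113 had a value on every array and were kept (36822 to 38556 values per array). The number of arrays limits the precision.

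Probes were named through the platform annotation (22204 with 1 symbol), averaged per gene (41 of 43 Hox probes, 7 Hox genes with several), and set so that the median of the 14365 genes tested was 0 on every array. Tests were two-sided with limma 3.58.1 in R 4.3.3 (lmFit, eBayes) and Benjamini-Hochberg adjustment over all genes within each of 8 comparisons, and likewise for the genotype differences at 1.5, 6 and 24 h. An additive fit of time and genotype (5 residual degrees of freedom) gave the genotype average and the TNF responses. A fit of group means (2 residual degrees of freedom) gave every other difference, with its spread from the 0 h pairs only, so that treated arrays, which have no replicates, are assumed to vary like them. The fits were run on simulated data with a constant KO shift and the same spread in both genotypes. Limits were set there only for the genotype average and the TNF response at 1.5 h. The wider spread of the KO arrays was not simulated.

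The members and lists were chosen with earlier results of these data known. Every member is named with its values on each array. SE and adjusted p are given for the 3 Hox genes of smallest p in each of the 8 comparisons, and at most 3 members are named per other list in each genotype comparison. Cyp26b1, Aldh1a1 and Aldh1a3 are named besides at 0 h and were picked after their values were seen. Members singled out for 1 array, for their order over arrays, or in the differences at 1.5, 6 or 24 h alone were picked after their values were seen. The letters a and b were not used as pairs in the main fits. The deviations of WT and KO arrays between them correlated at -0.005 over genes. That value cannot show whether the arrays were cultured or processed in pairs. WT arrays come before KO arrays in the image numbering, so order and genotype cannot be told apart. A search of the promoters for an NF-kB motif was also made and is not reported here.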

Additional observations from a re-analysis of the deposited data

Results flagged for a closer look

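Hoxa5 was the only Hox gene whose treated WT arrays were all above both WT 0 h arrays while its treated KO arrays were all below both KO 0 h arrays. The mean of the treated arrays minus 0 h differed by -1.05 on the log2 scale, KO minus WT. The arrangement held for 1 of 34 Hox genes (2.94%), near its share of all genes (1.94%). The opposite arrangement was found for 3.07% of all genes and 0 Hox genes. Hoxa5 was singled out after its values were seen, and it rests on 1 probe. Its KO 0 h arrays, the highest of the 10, enter both the arrangement and the difference of -1.05. The pooled difference over the times was not tested. The array labelled KO at 24 h, whose Sirt6 value was WT-like, is among the treated arrays.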

How the results depend on the processing

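The Hox median at 0 h, 0.259, stayed positive in every alternative run: 0.102 without centring, 0.192 with quantile normalization, 0.200 with the trend in spot order removed, 0.172 with arrays scaled to equal spread, 0.333 over genes with an SD above the median, 0.089 as KO minus WT over all times, and 0.214 without WT 24 h and KO 0 h b. The median over the times, 0.089, was 0.020, 0.051, 0.058 and 0.023 under the first 4 of these, 0.043 with 1 mean per group, and 0.132 without those 2 arrays. The median difference in response at 6 h, -0.419, was -0.156, -0.280, -0.123, -0.269 and -0.622 under the first 5 and -0.375 without those 2 arrays. That at 24 h, -0.403, was -0.196 without centring, -0.448 per probe, -0.277 without the trend, -0.338 scaled and -0.551 over variable genes. At 1.5 h, -0.066, it was -0.096 with quantile normalization, -0.021 for spots on at least 8 arrays, 0.045 without the trend and -0.147 over variable genes.

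The TNF response medians changed sign in some settings. At 1.5 h (0.017) they were 0.064 without centring, -0.017 without the trend, 0.067 scaled and 0.056 with the letters as a replicate block. At 6 h (-0.048) they were 0.000 per probe, -0.107 without the trend, 0.002 scaled and -0.080 over variable genes. At 24 h (0.027) they were -0.048 without centring, 0.080 with quantile normalization, 0.076 for spots on at least 8 arrays, 0.066 scaled, 0.067 with the replicate block and -0.065 without those 2 arrays. The cause of these shifts was not tested, but without centring the median of all genes itself was -0.200 at 0 h and 0.231 and 0.262 in the differences in response at 6 and 24 h.

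With each array left out in turn, the medians ranged from 0.214 to 0.272 at 0 h and 0.035 to 0.178 over the times. In the differences in response at 1.5, 6 and 24 h they ranged from -0.141 to -0.051, -0.436 to -0.258 and -0.403 to -0.346, and in the responses from -0.024 to 0.163, -0.136 to 0.031 and -0.015 to 0.191. The number of Hox genes called, 0 in all 8 comparisons, then ranged from 0 to 9 at 0 h, 0 to 6 and 0 to 4 in the differences in response at 6 and 24 h and 0 to 1 in the TNF response at 24 h. It was 1 in the difference at 24 h with arrays scaled, and 1 at 0 h and 1 in the difference at 6 h without WT 24 h and KO 0 h b. Apart from the scaled setting, calls at 0 h and in the differences in response arose only without KO 0 h a or b. Such fits rest on 1 untreated KO array, and calls rose over all genes too, by the shares given in the Results. These counts therefore do not single out the Hox genes. With arrays scaled 0.334% of all genes were called at 24 h. The call in the TNF response rests on the WT 24 h array alone. The replicate block gave 0 Hox genes called. The other model could not give the differences in response, and a time could not be tested for them without its array.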

Other observations

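Genes beside the Hox clusters and other positional factors were read in the same comparisons, and by limma 0 members passed. Of the genes flanking the clusters 19 of 24 were measured, with a median KO minus WT difference of 0.13 at 0 h and 0.12 over the times on the log2 scale. At 0 h 0 of them were at an unadjusted p under 0.05 (17.2% of all genes were), and 3 were lower over the times (5.45% of all genes), Hnrnpa1 (-0.40, SE 0.15), Atp5g2 (-0.36, SE 0.15) and Atp5g3 (-0.28, SE 0.12).

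Of 42 other positional factors, among them homeodomain, forkhead and T-box genes, 36 were measured. Their median was -0.01 at 0 h, with 18 of 36 differences positive (46.2% of all genes). At an unadjusted p under 0.05 were 3 higher (7.66% of all genes) and 6 lower (9.5%) genes at 0 h, and 1 higher (4.23%) and 4 lower (5.45%) over the times. Foxf2, a forkhead factor of gut and facial mesenchyme, was at -1.82 (SE 0.22, adjusted p = 0.187), the forebrain and jaw factor Dlx1 at -1.33 (SE 0.25, adjusted p = 0.187) and Six2, which keeps kidney progenitors, at 0.90 (SE 0.19, adjusted p = 0.192). Averaged over the times, the limb mesenchyme factor Prrx1 was at -0.76 (SE 0.20, adjusted p = 0.404), the hindlimb factor Pitx1 at -0.43 (SE 0.15) and Emx2 at 0.39 (SE 0.15).

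Probes of the same Hox gene did not always move together between the genotypes at 0 h. The probes of Hoxc6 gave KO minus WT values of 0.29 and 1.12, those of Hoxa10 0.67 and 0.19, those of Hoxc4 0.40 and -0.21 and those of Hoxb13 -0.33 and 0.17. Markers of endothelium, epithelium, neural tissue and embryonic stem or germ cells had array medians of -0.17 to 0.40, -2.11 to -1.55, -0.21 to 0.41 and -0.61 to -0.07.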
